A study of Mus musculus with 13 samples.

Results

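The miRNA cargo described here is that of vesicles released by C26 cells, a mouse colon adenocarcinoma line of Balb/C origin, into culture medium. The cells were kept for 48 h in medium without serum, and the vesicles were pelleted by a final spin of 70 min at 100000 g and washed. Such vesicles are called tumour microvesicles (TMVs) here. Small RNA from them was sequenced in 3 libraries of the 13 in the series, named replicates 1 to 3 from their titles, and the plasma libraries of the series were not used. All 3 libraries carry the same labels, with no allele, treatment or time that sets them apart, so there is no contrast between groups and every comparison is between libraries or between miRNAs. Nothing states that the libraries came from separate cultures, so the p-values measure only the spread between these libraries, which may be technical.

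Members were chosen by a count minimum of 10 that each library had to reach, which left 167 mature miRNAs of the 1164 that the TMV table lists. A count is a sequencing read assigned to a mature miRNA, and the libraries held 146523, 112357 and 170571 counts in replicates 1, 2 and 3. This minimum therefore lay at 0.00682, 0.0089 and 0.00586% of the counts, and a count of 0 allows a share of up to 0.00205, 0.00267 and 0.00176% (taken as 3 counts, for counting error only). Of the other rows, 500 had a count in some library, and together they held 0.810% ± 0.0397 (SD, n = 3) of the counts. The share of a library that a miRNA takes is relative, so a vesicle pool with fewer vesicles and one with less RNA per vesicle cannot be told apart.

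A miRNA is cut from a hairpin precursor by Drosha and Dicer, and either strand of the duplex, the 5p or the 3p arm, can be loaded into an Argonaute protein. Bases 2 to 8 of the mature strand, the seed, pair with target mRNAs, so miRNAs that share a seed share many predicted targets. Many precursors lie close together in the genome and are transcribed as 1 primary RNA. Cells release part of their miRNAs in vesicles, and for tumour cells this is studied as a route by which they act on other tissues.

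The markers set for C26 vesicles were all members. The level of let-7i-5p, of the differentiation-linked let-7 family, was 6.87, 8.76 and 8.79% of counts, and that of miR-21a-5p, a miRNA raised in many tumours, was 6.30, 7.68 and 9.73%. For miR-31-5p, which is often high in colorectal tumours, the level was lower, at 0.783, 0.569 and 0.481%, with 1148, 639 and 820 counts. Its precursor lies on chromosome 4 (88910557 to 88910662, minus strand, GRCm38), in an exon of a lincRNA. MiRNAs listed as epithelial were mostly scarce or absent in these vesicles of a colon adenocarcinoma line, and the cells themselves were not sequenced. Of 10 such miRNAs, miR-200a-3p, miR-141-3p, miR-429-3p and miR-205-5p had no count in any library, and miR-200b-3p had 1 count in each. Only miR-192-5p, with 56, 47 and 105 counts, and miR-203-3p, with 16, 10 and 17, were members, and the 10 together took between 0.0560 and 0.0838% of counts.

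Each library stood apart in some respect. Replicate 2 held 1014 counts of miR-1a-3p, a miRNA of striated muscle, against 118 and 110 in replicates 1 and 3. It also held 30 counts of miR-133a-3p against 2 and 2, while the muscle miRNA miR-133b-3p had none in any library. The summed muscle list was thus 0.205, 1.09 and 0.168% of counts. Replicate 3 was high in red cell miRNAs, with 0.418, 0.408 and 1.42% for the list over replicates 1 to 3, although miR-144-3p had 0, 0 and 2 counts and miR-144-5p none. The leukocyte and platelet list as a whole took 0.178, 0.150 and 0.206%. Most of it was miR-142a-5p, with 218, 143 and 310 counts, and miR-142a-3p, with 40, 22 and 40, which were members. Of the same list, miR-223-3p had only 1, 0 and 1 counts and miR-150-5p 2, 4 and 1. Replicate 1 was highest for most miRNAs rich in G and C, with values given below. Whether these differences had a part in the results was not tested.

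The sequences below are those of the 8 seed families that took most counts among members with a sequence. Mature sequences from RefSeq (GRCm38.p6) were matched by name for 145 of the 167 members. In each, the seed is in capitals. The 9 members of the let-7 and miR-98 family are shown first because their seed, GAGGUAG, led the cargo and because several differ from each other by a single base.
let-7i-5p: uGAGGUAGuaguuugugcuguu
let-7c-5p: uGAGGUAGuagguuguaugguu
let-7f-5p: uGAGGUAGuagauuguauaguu
let-7b-5p: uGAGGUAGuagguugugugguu
let-7g-5p: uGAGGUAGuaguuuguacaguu
let-7a-5p: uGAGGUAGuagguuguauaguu
let-7d-5p: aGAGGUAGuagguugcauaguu
let-7e-5p: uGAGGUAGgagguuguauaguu
miR-98-5p: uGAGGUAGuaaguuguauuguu

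The next lines give the members of the other 7, to show which bases separate miRNAs of 1 seed. They are miR-148a, miR-148b and miR-152 (CAGUGCA), the miR-99 and miR-100 family (ACCCGUA), miR-125 and miR-351 (CCCUGAG), miR-26 (UCAAGUA), the miR-30 members with an entry (GUAAACA), miR-10 (ACCCUGU), and miR-221 with miR-222 (GCUACAU).
miR-148a-3p: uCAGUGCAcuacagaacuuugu
miR-152-3p: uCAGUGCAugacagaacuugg
miR-148b-3p: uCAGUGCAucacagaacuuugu
miR-99b-5p: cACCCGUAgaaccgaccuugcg
miR-100-5p: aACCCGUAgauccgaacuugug
miR-99a-5p: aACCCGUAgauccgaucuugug
miR-125b-5p: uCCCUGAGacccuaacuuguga
miR-125a-5p: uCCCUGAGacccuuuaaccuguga
miR-351-5p: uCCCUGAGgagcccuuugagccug
miR-26a-5p: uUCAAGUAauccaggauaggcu
miR-26b-5p: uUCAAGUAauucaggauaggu
miR-30a-5p: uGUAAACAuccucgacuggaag
miR-30c-5p: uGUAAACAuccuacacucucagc
miR-30e-5p: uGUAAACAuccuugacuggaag
miR-10a-5p: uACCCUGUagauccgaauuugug
miR-10b-5p: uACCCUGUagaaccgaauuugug
miR-222-3p: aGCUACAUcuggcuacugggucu
miR-221-3p: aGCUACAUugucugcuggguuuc

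The members held 99.2% ± 0.0397 (SD, n = 3) of all counts, and the cargo was concentrated in few of them. The 15 highest took 61.9% ± 1.89, the miRNAs ranked 16 to 40 took 24.5% ± 1.67, and the remaining 127 took 12.8% ± 0.251. In replicates 1, 2 and 3, 12, 10 and 11 miRNAs made up 50% of the counts, and 48, 47 and 48 made up 90%. The highest member exceeded the lowest 976-fold. Of the members, 25 had a mean above 1% and 79 a mean above 0.1%. The highest miRNAs were largely the same between libraries, since 14 were in the first 15 of every library, 35 in the first 40 and 90 in the first 100. Their order differed at the very top. The highest was let-7c-5p in replicate 1 (7.22%), let-7i-5p in replicate 2 (8.76%) and miR-21a-5p in replicate 3 (9.73%).

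Ranks 16 to 40 held miRNAs of several known settings, and their steadiness between libraries differed widely. The steadiest was miR-100-5p, a relative of miR-99 known to act on mTOR, at 1.19, 1.16 and 1.16% of counts (1.17% ± 0.0183, SD, n = 3). Its share did not differ between libraries beyond counting error (chi-square, Benjamini-Hochberg adjusted p = 0.725). A like steadiness was seen for miR-10a-5p, encoded in a Hox cluster, at 1.80, 1.88 and 1.80% (adjusted chi-square p = 0.256). The level of miR-152-3p, from an intron of the coatomer gene Copz2, was 0.829, 0.909 and 0.885% (adjusted chi-square p = 0.110). The 3 values of miR-7a-5p were 0.627, 0.685 and 0.694% (adjusted chi-square p = 0.0764). These 4 were the members of ranks 16 to 40 whose share did not pass the test.

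Other members of this range were uneven. The level of miR-30a-5p, of a family known to act on autophagy genes, was 1.23, 2.16 and 2.45% of counts (1.95% ± 0.637, SD, n = 3), lowest in replicate 1. Replicate 1 was instead highest for miR-125a-5p, a homologue of the worm timing miRNA lin-4, at 2.30, 1.25 and 1.15% (1.57% ± 0.637). For miR-151-3p, the values were 2.28, 1.91 and 1.14%, lowest in replicate 3. In replicate 3, miR-199a-3p, which is abundant in mesenchymal cells, stood at 2.18% against 1.22 and 1.18% in the others. Of the 25 miRNAs in ranks 16 to 40, 8 had a coefficient of variation (CV, the SD as a percentage of the mean) above 30%, and 18 stayed within ranks 16 to 40 in every library.

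Among members of this range with a known role in tumour or stromal cells, miR-146b-5p, part of a feedback on NF-kB signalling, was nearly level at 1.01, 1.09 and 0.952%. The collagen-linked miR-29a-3p was highest in replicate 3, at 0.986, 0.900 and 1.29%. Both repressors of the cell cycle inhibitor p27 were present, miR-222-3p at 1.00, 0.683 and 0.543% and miR-221-3p at 0.756, 0.554 and 0.793%, with their order reversed between replicates 1 and 3. The Drosha-independent miR-320-3p was highest in replicate 1, at 0.965, 0.739 and 0.566%. The level of miR-218-5p, which lies within Slit genes, was 0.733, 0.726 and 0.847%. That of miR-103-3p, from introns of pantothenate kinase genes, was 0.643, 0.542 and 0.673%, and that of let-7a-5p was 1.53, 1.20 and 1.14%. Replicate 3 was lowest for miR-5099, at 1.30, 1.1 and 0.623%. Of the miRNAs shown in the plot of ranks 16 to 60, miR-1a-3p and miR-451a spread most.

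**Figure D1:**
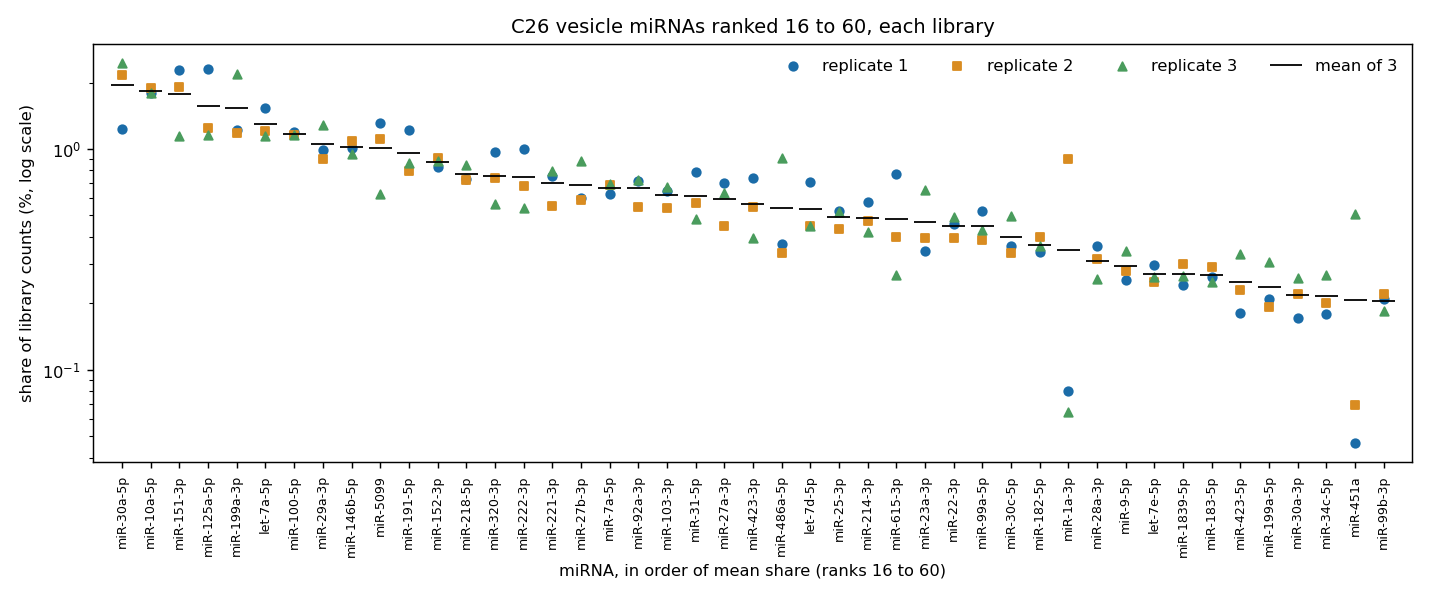
Share of library counts (%, log scale) of the members ranked 16 to 60, in order of mean share, with 1 point for each library and a line at the mean of 3. The points of miR-100-5p lie together at 1.17%, while 1 library sets the mean of miR-1a-3p (0.902% in replicate 2) and of miR-451a (0.508% in replicate 3).

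Grouped by seed, 52 of the 145 members with a sequence formed 19 families of at least 2. Another 93 had a seed that no other of the 145 shared, so that 112 distinct seeds were seen. Members without a matched sequence, such as miR-30d-5p, miR-23b-3p and miR-199b-5p, were left out, so these counts do not cover all members. The families took 53.8% ± 1.67 (SD, n = 3) of counts and the 8 highest alone 49.4% ± 1.79. The let-7 and miR-98 family was steady as a sum, at 27.0, 26.9 and 25.7%, which differed less than its leading members did. Within it, let-7i-5p made up 30.7% ± 4.63, let-7c-5p 23.9% ± 2.81, let-7f-5p 14.3% ± 0.825 and let-7b-5p 13.7% ± 1.98. The low end was let-7e-5p with 1.02% ± 0.0863 and miR-98-5p with 0.134% ± 0.0218 of the family.

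In most other families 1 member dominated. The miR-148 and miR-152 family, known for DNA methyltransferase targets, took 4.44, 5.93 and 4.67% of counts, of which miR-148a-3p made up 80.7% ± 2.21 (SD, n = 3). In the miR-99 and miR-100 family, at 5.58, 4.95 and 4.12%, miR-99b-5p made up 66.4% ± 4.39, miR-100-5p 24.3% ± 3.51 and miR-99a-5p 9.24% ± 1.29. The miR-125 family was highest in replicate 1, at 5.67, 3.55 and 3.77%, with miR-125b-5p at 62.4% ± 5.21 of it and miR-125a-5p at 35.5% ± 5.02. Dominance by 1 member was strongest for miR-146b-5p, at 98.2% ± 0.658 of its pair with miR-146a-5p, and for miR-10a-5p, at 97.4% ± 0.950 of its pair with miR-10b-5p. In miR-26, the main form miR-26a-5p made up 94.6% ± 1.29.

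A few families were shared evenly. The pair miR-222-3p and miR-221-3p was split 51.0 to 49.0% (SD 9.0 points, n = 3), and the pair took 1.76, 1.24 and 1.34% of counts. A similar split was found for miR-27b-3p and miR-27a-3p, at 53.7 and 46.3% (SD 6.72 points). In the AUUGCAC family miR-92a-3p and miR-25-3p made up 56.3% ± 1.19 and 42.1% ± 1.44, and these come from different clusters. The miR-30 members with an entry were lowest in replicate 1 as a sum, at 1.65, 2.55 and 3.02%. Grouped by name, with miR-30d-5p, for which no sequence was matched, at 3.16, 3.41 and 2.65%, the 4 miR-30 5p arms took 4.81, 5.96 and 5.67% (5.48% ± 0.598). That mean is above the 5.01% ± 0.801 of the miR-148 and miR-152 family by less than the SD of either, and its libraries were within 1.24-fold. The handling of reads that match several close miRNAs is unknown from the sources used here, and 42 members lie within 2 edits of another counted miRNA. The splits within let-7, miR-27, miR-30, miR-10, miR-26, miR-146, miR-148a with miR-148b, and miR-99a with miR-100 are therefore uncertain. A family sum does not depend on how reads were split among its listed members. It would change if such reads were dropped, counted more than once, or assigned to a relative without a matched sequence.

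**Figure D2:**
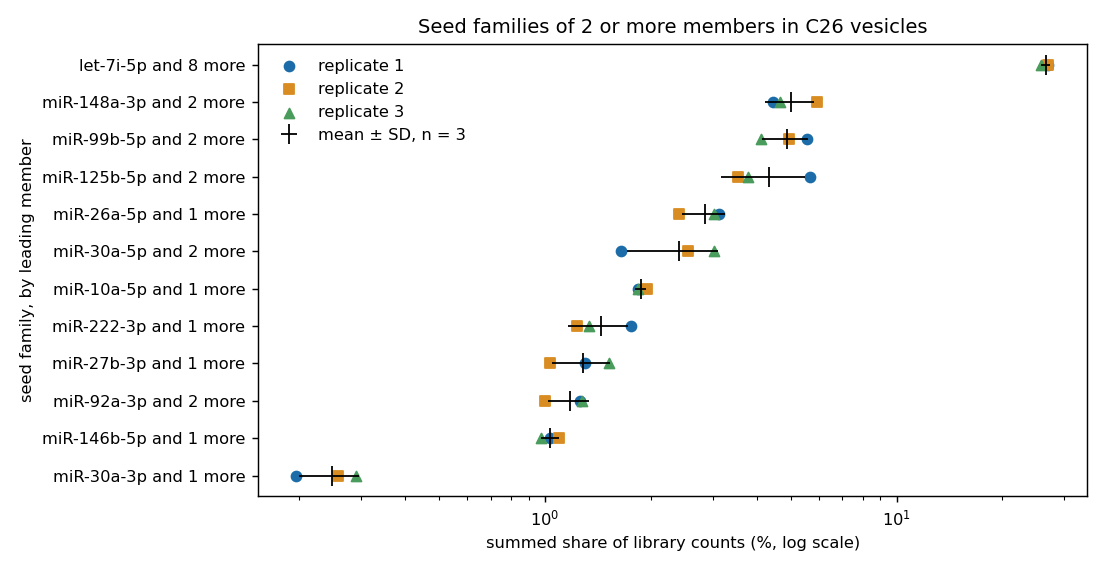
Summed share of library counts (%, log scale) of the 12 highest seed families of at least 2 members, with 1 point for each library and the mean ± SD (n = 3). The let-7 family lies at 26.6% and the next 3 families between 4.33 and 5.01%, the miR-125 family is highest in replicate 1, and the miR-30 family is plotted without miR-30d-5p (5.48% with it, by name).

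By name, 85 members were 5p arms, 67 were 3p arms and 15 had no arm in their name, and these took 63.0% ± 0.908, 34.2% ± 1.03 and 2.03% ± 0.193 (SD, n = 3) of counts. Arm use was measured as the 5p share of the counts of both arms. Of 334 pairs with both arms in the table, 103 had at least 10 counts for both arms together in every library. The 5p arm led, with the Wilson 95% interval above 50% in every library, in 50 pairs (48.5% of pairs), and the 3p arm led in 41 (39.8%). Most pairs used nearly 1 arm alone: the 5p share was above 95% in all libraries in 32 pairs and below 5% in 28. In 17 pairs the lesser arm had no count in any library. The markers were of this kind, with 1, 1 and 3 counts of let-7i-3p, 7, 3 and 2 of miR-21a-3p, and 0, 1 and 1 of miR-31-3p.

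In 20 pairs both arms were members. A steady one was let-7d, whose 5p arm held 80.0, 80.7 and 80.3% of both arms (80.4% ± 0.377, SD, n = 3), although the level of let-7d-5p itself was 0.709, 0.448 and 0.448% of counts. The most abundant lesser arms were miR-423-5p at 0.249% of counts, miR-199a-5p at 0.237%, miR-30a-3p at 0.218% and miR-99b-3p at 0.205%. In miR-199a, the 5p share was 14.6, 14.0 and 12.4%. Nearest to an even split were miR-130b, at 62.9, 39.1 and 48.1% 5p, and miR-342, at 50, 50 and 44.1%, both from few counts. The next nearest were miR-330 at 31.0, 40 and 60.7%, miR-195a at 49.1, 57.5 and 63.0%, miR-30b at 60, 46.7 and 76%, miR-145a at 29.8, 42.3 and 41.4%, miR-30e at 68.2, 54.8 and 70.4%, and miR-708 at 46.8, 32.6 and 23.2%. None of these 8 pairs had an arm that led in every library, and none passed the test between libraries given below. Of the arms named for 1 of several precursors, miR-125b-1-3p made up 6.24% ± 1.09 of the counts it shared with miR-125b-5p. For miR-365-2-5p this was 85.9% ± 4.77 of those it shared with miR-365-3p, from few counts (43, 35 and 33 against 5, 5 and 8). That share leaves out miR-365-1-5p, which had 10, 8 and 8 counts.

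The 5p share differed between libraries in 9 of 103 pairs (8.74%) by chi-square at an adjusted p of 0.05, and in 20 without adjustment. The clearest was miR-423, for which miR-423-5p had 264, 258 and 573 counts and miR-423-3p had 1083, 615 and 675. Its 5p share was 19.6, 29.6 and 45.9% in replicates 1, 2 and 3 (31.7% ± 13.3, SD, n = 3), and the Wilson 95% intervals, 17.6 to 21.8, 26.6 to 32.7 and 43.2 to 48.7%, did not overlap. The chi-square adjusted p was 2.81e-44, and the pair passed with any library left out. The other 8 pairs moved by a few points, such as miR-30a with 87.8, 90.7 and 90.4% 5p (adjusted chi-square p = 0.0267) and miR-106b with 2.07, 2.84 and 8.68% (adjusted chi-square p = 0.0445). Without replicate 1 only miR-423 passed, and 5 pairs passed without replicate 2 (miR-423, miR-10a, miR-30a, miR-486a and miR-99b) or without replicate 3 (miR-423, miR-125a, miR-140, miR-27a and miR-30a). The hairpins of miR-423 and let-7d are shown because the arm share of the first differed most between libraries among the pairs that passed, and that of the second stayed within 1 point. Mature arms are in capitals, the 5p arm first.
miR-423 (chr11:77078064-77078172, minus strand, GRCm38.p6, intron of Nsrp1): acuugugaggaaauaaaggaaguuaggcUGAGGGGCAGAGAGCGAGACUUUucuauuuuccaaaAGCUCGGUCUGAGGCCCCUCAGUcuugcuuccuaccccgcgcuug
let-7d (chr13:48536012-48536114, minus strand, GRCm38.p6, exon of a lincRNA): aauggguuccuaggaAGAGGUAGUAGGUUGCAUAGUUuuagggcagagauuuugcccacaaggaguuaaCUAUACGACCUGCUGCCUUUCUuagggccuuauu

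**Figure D3:**
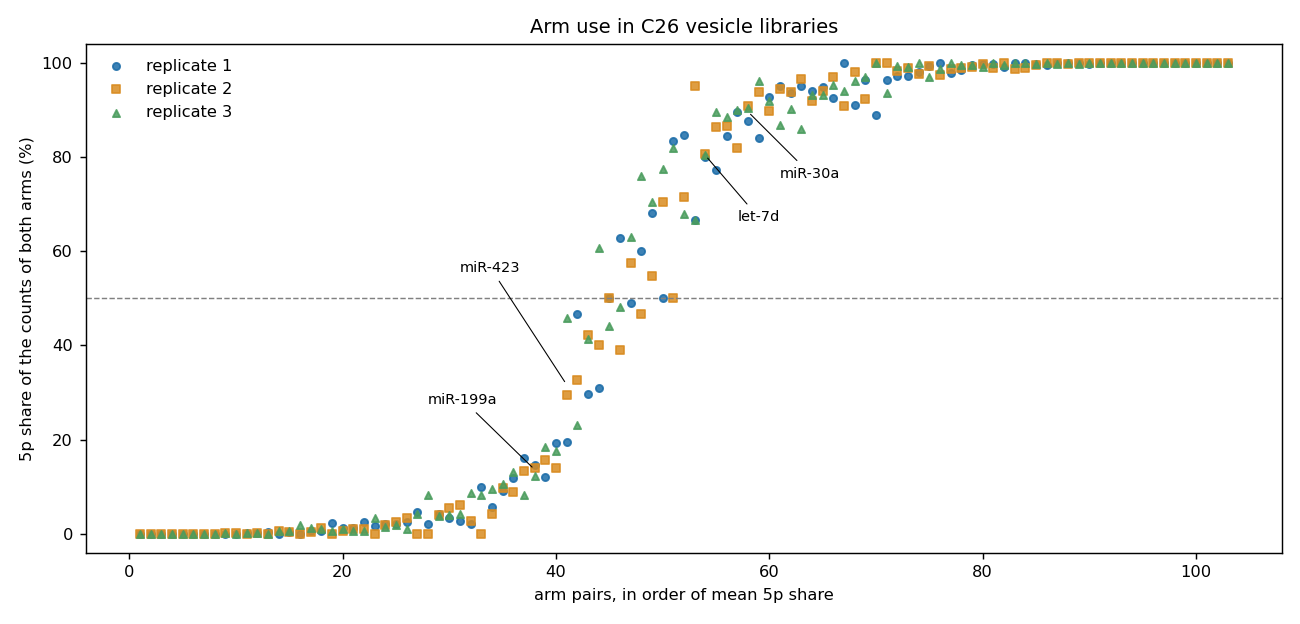
The 5p share of the counts of both arms (%) in 103 arm pairs, in order of mean 5p share, with 1 point for each library and a dashed line at 50%. Most pairs lie near 0 or 100%, let-7d has its 3 points together near 80.4%, and those of miR-423 run from 19.6 to 45.9%.

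Precursors on 1 strand whose starts lay within 10 kb of a neighbour were taken as a cluster, with positions from RefSeq on GRCm38.p6 and host genes from GENCODE M21. There were 17 clusters with at least 2 members, and their 43 members took 30.6% ± 3.71 (SD, n = 3) of counts. Members without a RefSeq entry, such as miR-143-3p, miR-34c-5p and miR-23b-3p, were not placed. Nor were those with several precursors of which any lay outside a cluster. The clusters and their members are therefore a lower count. The mature sequences of let-7c, let-7f, miR-24-3p, miR-181a-5p and miR-181b-5p each come from precursors in 2 clusters, and counts do not separate these, so such a miRNA was counted in both. Likewise miR-92a-3p has precursors on chromosomes 14 and X, and all its counts were taken in the chromosome 14 cluster of miR-17. The clusters of miR-181 hold the same members and counts, so that 16 of the 17 are distinct. With shared miRNAs counted in full, the highest cluster was let-7c-2 with let-7b on chromosome 15 (85706603 to 85707403, plus strand, in exons of the non-coding gene Lncppara), at 11.5, 10.1 and 8.49%, and its composition did not pass the test described below (chi-square adjusted p = 0.0855). Without let-7c-5p, which also comes from chromosome 16, it held 3.64% ± 0.607, below the 5.45% ± 1.32 of the cluster of miR-99b. The cluster of miR-99a and let-7c-1 on chromosome 16 (77598936 to 77599750, plus strand, in an intron of Mir99ahg) took 6.81% ± 0.941, of which miR-99a-5p made 0.448% ± 0.0701 of counts. With let-7c-5p counted in full, the composition of this cluster differed (chi-square adjusted p = 0.000245). The cluster of let-7d, let-7f-1 and let-7a-1 on chromosome 13 (48536012 to 48538272, minus strand) took 5.77% ± 0.277. In that of let-7f-2 and miR-98 on chromosome X (151912346 to 151913321, plus strand, in an intron of Huwe1), at 3.83% ± 0.130, the higher member exceeded the lower 107-fold. In miR-23a, miR-27a and miR-24-2 on chromosome 8 (84208518 to 84208921, plus strand), the cluster took 3.43, 2.69 and 3.29%. Its members parted between libraries, since miR-23a-3p was 0.347, 0.396 and 0.653% of counts while miR-27a-3p was 0.703, 0.447 and 0.635%.

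The cluster of miR-99b, let-7e and miR-125a on chromosome 17 (17830194 to 17830879, plus strand, within Spaca6) shares no mature sequence with another cluster in the set. It took 6.85, 5.26 and 4.23% of counts, highest in replicate 1. Its members did not keep 1 ratio. While miR-125a-5p was 2.30, 1.25 and 1.15%, let-7e-5p was 0.297, 0.25 and 0.264%, and the highest member exceeded the lowest 23-fold. Composition, the split of a cluster's counts among its members, differed between libraries in 9 of 17 clusters (52.9%) by chi-square with adjusted p under the threshold of 0.05. Where a miRNA also has precursors elsewhere, all its counts entered the test. A difference there, as in the cluster of miR-99a, need not lie in the split of that cluster. In the cluster of miR-23a, only miR-24-3p was shared, and the others parted too. There miR-23a-3p had 508, 445 and 1114 counts and miR-27a-3p had 1030, 502 and 1083, a split not tested apart from miR-24-3p. In the cluster of miR-99b, which has no such miRNA, the chi-square adjusted p was 1.22e-45.

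In other clusters a difference in the split did not pass the test, which does not show that the split was the same. In miR-182 with miR-183 (chromosome 6, 30165918 to 30169737, minus strand), known from sensory organs, the cluster took 0.605, 0.690 and 0.611% of counts. The higher member exceeded the lower 1.37-fold, and composition did not pass (chi-square adjusted p = 0.570). In miR-25, miR-93 and miR-106b (chromosome 5, 138165321 to 138165818, minus strand, in Mcm7), a cluster related to miR-17 to miR-92, the levels were 0.726, 0.610 and 0.722% (chi-square adjusted p = 0.110). There miR-106b-3p had 189, 137 and 200 counts and miR-93-5p had 107, 58 and 146. The pair of miR-191 and miR-425 (chromosome 9, 108568319 to 108568861, plus strand) was at 1.26, 0.825 and 0.904%, almost all of it miR-191-5p, and its composition did not pass (chi-square adjusted p = 0.119). By contrast the split of miR-221 with miR-222 on chromosome X (19146294 to 19146971, minus strand) differed between libraries (chi-square adjusted p = 1.22e-31).

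Agreement between libraries was close in rank and looser in level. Over the 167 members, Spearman's rho of shares was 0.965 for replicates 1 and 2, 0.950 for 1 and 3, and 0.966 for 2 and 3, as a description across miRNAs, which are not independent replicates. The median difference was 1.27-fold, 1.33-fold and 1.24-fold for these pairs. Over 3 libraries, 82 members lay within 1.5-fold from lowest to highest, 140 within 2-fold, and 5 differed more than 3-fold (miR-1a-3p, miR-451a, miR-8117, miR-5119 and miR-330-3p). The median CV was 21.4%, while counting error alone gave a median of 8.71%. A fit of 1 group in edgeR gave a biological CV of 0.285, which is the spread left after counting error.

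The share differed between libraries in 103 of 167 members (61.7%) by chi-square at an adjusted p of 0.05, and in 106 without adjustment. Among the 40 highest, 36 passed, and among the other 127, 67 passed. Of those that passed, 50 were highest in replicate 1, 12 in replicate 2 and 41 in replicate 3. Leaving out a library lowered the count to 65 of 170 without replicate 1, 86 of 184 without replicate 2 and 67 of 170 without replicate 3. Members with a mean above 0.1% that did not pass numbered 11, and besides those named above they were miR-182-5p, miR-183-5p, let-7e-5p, miR-99b-3p, miR-674-3p, miR-106b-3p and miR-471-5p.

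**Figure D4:**
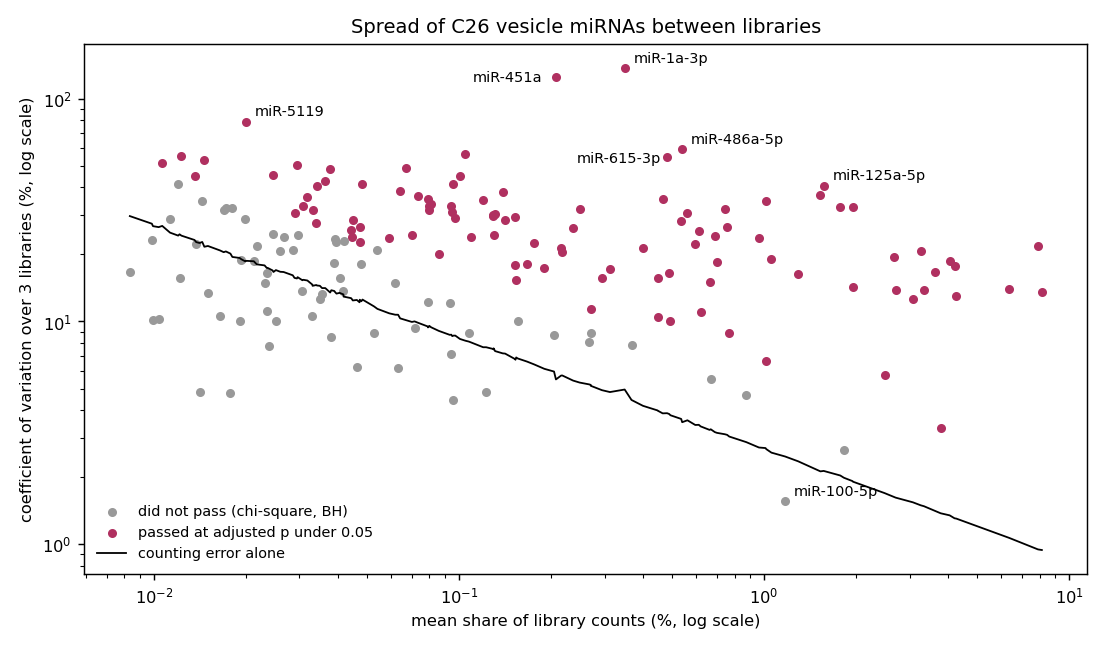
Coefficient of variation over 3 libraries (%, log scale) against mean share of library counts (%, log scale) for the 167 members, coloured by the chi-square test of equal shares, with a line for counting error alone. The points of miR-1a-3p and miR-451a lie highest, above 100%, and miR-100-5p lies lowest, at 1.56%.

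The widest spread came from single libraries. For miR-1a-3p, the shares were 0.0805, 0.902 and 0.0645%, a 14.0-fold range, and its mean of 0.349% became 0.0725% without replicate 2. Another muscle miRNA, miR-206-3p, was also highest in replicate 2 but over a smaller, 1.61-fold range. Its shares were 0.123, 0.165 and 0.102% (180, 185 and 174 counts), which differed between libraries (chi-square adjusted p = 5.49e-05). The Dicer-independent miR-451a had 68, 78 and 866 counts, or 0.0464, 0.0694 and 0.508%, and its mean of 0.208% became 0.0579% without replicate 3. In the same library miR-486a-5p, also abundant in red cells, reached 0.908% against 0.371 and 0.338%, and its mean of 0.539% became 0.355% without replicate 3. From an intron of Hoxc5 (chromosome 15, 103014926 to 103014990, plus strand), miR-615-3p ran the other way, at 0.774, 0.401 and 0.269%. Its counts were 1134, 450 and 458. Less abundant miRNAs with no arm in their name also differed widely, miR-8117 with 64, 123 and 276 counts and miR-5119 with 56, 12 and 19, whose mean of 0.0200% became 0.0109% without replicate 1. With 61.9% G and C, miR-8117 was highest in replicate 3, while miR-5119, with 63.2%, was highest in replicate 1. The sequences of miR-451a (36.4% G and C, highest in replicate 3) and miR-615-3p (63.6%, highest in replicate 1) are given for their base composition, with the seed in capitals.
miR-451a: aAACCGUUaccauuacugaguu
miR-615-3p: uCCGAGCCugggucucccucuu

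A split of the members by the share of G and C in the mature sequence, chosen after the values had been seen, is given here as a description. Of 23 members with 60% or more, 21 were higher in replicate 1 than in replicate 3, with a median log2 ratio of 0.66. Of 23 members under 40%, 5 were, with a median log2 ratio of -0.29. The GC-rich group took 7.15, 5.79 and 4.51% of counts in replicates 1, 2 and 3, and the GC-poor group took 16.3, 17.6 and 20.8%. Spearman's rho of GC share and the log ratio of replicates 1 and 3 was 0.496 over 145 members, and 0.529 over the 67 with at least 100 counts. These points share their libraries, and the part of base composition in the differences between libraries was not tested.

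**Figure D5:**
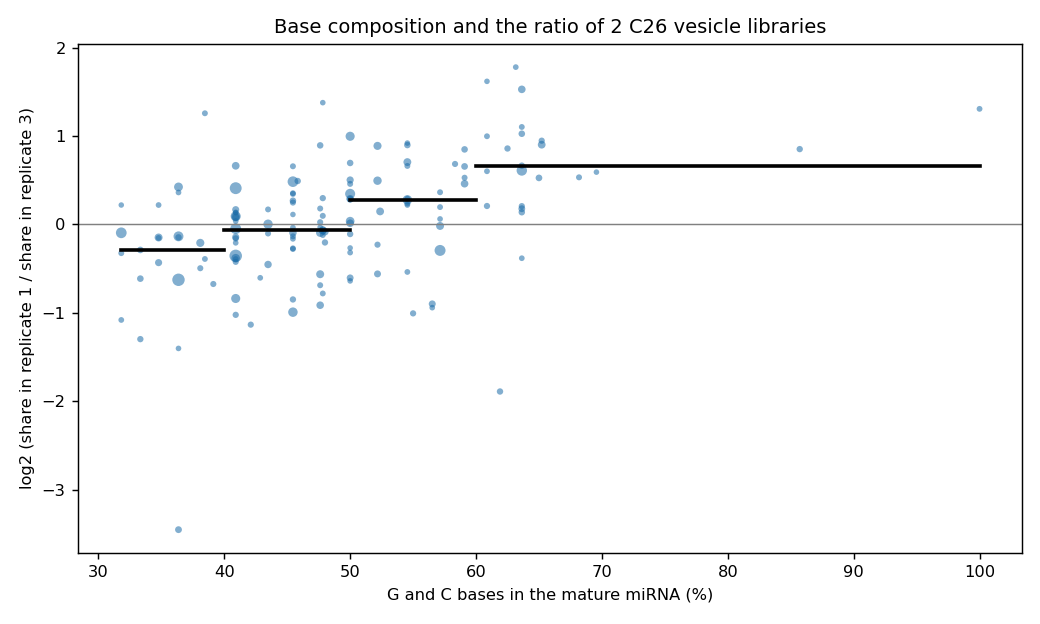
Log2 ratio of the share in replicate 1 to that in replicate 3 against the G and C bases of the mature miRNA (%), for the 145 members with a sequence, with point area growing with mean share and black lines at the median of 4 GC ranges. The medians rise from -0.29 below 40% to 0.66 at 60% and above.

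Other sequence features of the members were set beside those of the whole table, which includes them. A first base U, which Argonaute is known to favour, was found in 68 of 145 members (46.9%), against 42.3% of the 1002 table rows with a sequence, and the members with it took 65.5% ± 1.36 (SD, n = 3) of counts. A length of 22 bases was found in 55.9% of members and 47.3% of rows, and the median GC was 47.8 and 52.2%. The motifs GGAG and CCCU, reported as signals for loading into small vesicles, were searched as written, on the mature strand only, and cannot overlap each other. GGAG was in 17 members, 11.7% (Wilson 95% interval 7.45 to 18.0), against 14.5% of rows. CCCU was in 9 members, 6.21% (3.30 to 11.4), against 11% of rows. The members with GGAG, led by let-7e-5p, took 1.34% ± 0.255 of counts, and those with CCCU, led by miR-125b-5p, took 7.38% ± 1.58.

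The count minimum divides miRNAs of nearly equal level. Just inside it were miR-203-3p with 16, 10 and 17 counts, miR-671-5p with 22, 10 and 17, and miR-34c-3p with 10, 19 and 14. Just outside were miR-19b-3p with 18, 9 and 34, miR-25-5p with 20, 17 and 9, and miR-374b-5p with 15, 9 and 32. Thus miR-19b, of the growth-promoting miR-17 to miR-92 cluster, is left out by 1 count in replicate 2, although its neighbours miR-17-5p, miR-20a-5p and miR-92a-3p are members.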

How the data were processed

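Small RNA of vesicles from C26 conditioned medium was read as single reads of 75 bp. The authors deposited raw counts per mature miRNA, with bcl2fastq and cutadapt 1.10 listed in the submitters' processing notes. The aligner, counter, miRNA set and build were not given in the sources used here. Sample titles gave the group and the replicate number.

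Shares are counts divided by the column total. Members needed 10 counts in all 3 libraries. Equality of shares, arm shares and cluster composition between libraries was tested by chi-square with Benjamini-Hochberg adjustment at 0.05. The spread was fitted with edgeR 4.0.16 (TMM, 1 group), with DESeq2 1.42.0 size factors as an alternative. The test of shares and the edgeR fit were tried on simulated data, and the tests of arm shares and cluster composition were not. For the test of shares, the simulated libraries held only counting error and set fold changes, without the further spread of the real libraries. Sequences and positions came from RefSeq (GRCm38.p6), and host genes from GENCODE M21. Depth ran from 112357 to 170571 counts, and intervals (Wilson, 95%) cover counting error only: without molecular identifiers, reads are not independent molecules.

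The rule for names took miRNAs ranked 16 to 40, the 8 leading seed families, the 6 leading clusters, the 8 arm pairs nearest an even split and the 4 with the largest lesser arm, the 10 with the largest spread beyond counting error, the 3 on each side of the count minimum, and the marker lists, of which the text gives the larger part. Other families, clusters and arm pairs, and the steadiest miRNAs, were singled out after their values were seen. The members and lists were chosen with earlier results of these data known. Alternatives covered count minimum, scaling, test, cluster distance, seed length and each library left out. Python 3.11.15 with scipy 1.17.1 was used otherwise.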

Additional observations from a re-analysis of the deposited data

How the results depend on the processing

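The number of members depends on the count minimum: 343 miRNAs had at least 1 count in all 3 libraries and 106 at least 50, and 170 to 184 passed with a library left out. The 103 differing members of 167 became 99 to 108 under the planned scalings, filters and G test, and 65 to 86 with a library left out. The number tested changed with the filter, with 99 of 144 at a minimum of 20 counts and 108 of 208 at a minimum of 5. For alternatives chosen after seeing the data, they were 65 of 78 at a minimum of 100 counts and 99 of 163 without the red cell and muscle lists. The biological CV was 0.246 to 0.307 with a library left out. Pairs with a leading arm were 16 where both arms had to be members, and 92 to 96 with a library left out. Pairs with a differing arm share were 1 to 5 with a library left out, where fewer libraries were compared. Seed families were 51 over all rows with a count, and 19 to 21 with a library left out. With a library left out, clusters were 17 to 19, of which 7 to 8 differed in composition, and with 50 kb between precursors they were 21, of which 11 differed. For the named miRNAs, families, clusters and pairs, 242 values under another scaling or pooling lay within 1 SD of the main value. Leaving out a library cannot move a mean of 3 by 1 SD, so such values were compared by fold: 10 results moved over 1.5-fold, of which miR-1a-3p, miR-451a, miR-486a-5p (0.539 to 0.355% without replicate 3) and miR-5119 (0.0200 to 0.0109% without replicate 1) are members. No paired analysis was possible because all 3 libraries belong to 1 group. Depth limits the low end, where 10 counts carry a large counting error.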

Other observations

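Some miRNAs known from other tissues were members. The smooth muscle and stroma list took 3.40, 4.54 and 4.81% of counts, the highest of the lists of other tissues, nearly all of it miR-143-3p at 3.37, 4.49 and 4.78%, while miR-145a-5p of the same cluster had 14, 22 and 24 counts. Neural miR-9-5p took 0.256, 0.281 and 0.345% of counts, while miR-124-3p had no count. From the p53-responsive miR-34 family, miR-34c-5p took 0.179, 0.201 and 0.268%, whereas miR-34a-5p had 2 counts in each library. Hypoxia-responsive miR-210-3p was steady, at 0.0792, 0.0668 and 0.0686%. Among rows just below the count minimum, miR-5106, singled out after its values were seen, had 38, 10 and 8 counts.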
